A study of Homo sapiens with 6 samples.

Results

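The genes described here were 38 genes of DNA replication and S phase, chosen by name and found by their symbols among the 19974 annotated genes and 6210 further loci of the count table. All 38 had enough reads to be tested. They span 6 roles, namely origin licensing (10 genes), helicase activation (6), polymerases and primase (7), the clamp, its loader and lagging-strand enzymes (7), nucleotide supply (4), and chromatin and regulation (4). RNA sequencing covered 3 samples each of Huh7 P and Huh7 LR. Huh7 P is the untreated parental Huh7 line, a human hepatocellular carcinoma line of WT genotype. Huh7 LR is a resistant population derived from it under continuous lenvatinib, a multikinase inhibitor, raised from 1 to 20 μM over 10 months and then maintained in 20 μM. The resistant line is 1 derived population, and whether lenvatinib was present when RNA was taken is not stated in the sources used here. The study describes the samples of each line as independent, so the p-values measure the spread between cultures of those lines and not between separately derived resistant lines.

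DNA replication is prepared in G1, when the origin recognition complex (ORC), CDC6 and CDT1 load the ring-shaped MCM2 to MCM7 helicase onto origins. In S phase, CDC45 and the GINS complex join the ring to form the active helicase, primase with polymerase alpha lays primers, and polymerases epsilon and delta extend the strands, held by the PCNA clamp that replication factor C (RFC) loads. Ribonucleotide reductase and thymidylate synthase supply deoxynucleotides, and chromatin assembly factor 1 places histones behind the fork. Many of these genes are transcribed in late G1 by E2F factors, which bind short GC-rich motifs near the start site and are held in check by the retinoblastoma (RB) family. In bulk RNA, fewer cells in S phase and less RNA per cell cannot be told apart.

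Promoter windows of RefSeq on GRCh38.p14, reaching from 250 bases before to 50 after an annotated start, were given for 35 of the 38 genes. MCM4, MCM5 and GINS4 had no entry. An E2F match was an exact occurrence of TTTCCCGC, TTTCGCGC, TTTGCCGC or TTTGGCGC on either strand. Near forms such as TTTGGCGGG were not counted. Windows of MCM10, CDC45 and CHAF1A hold that form on either strand and have no match by this rule. Of the 35 genes, 19 (54.3%) held at least 1 match, against 3.99% of the 27305 genes with a window. The windows of these genes were also richer in G and C, with a median of 66.7% over 46 windows against 58.7% over all 35116, and the part of base composition in the matches was not tested. The 5 windows printed here show a licensing gene with several matches, a polymerase subunit with a match beside its start, the E2F1 gene itself, and a pair of genes without a match whose RNA differed in opposite directions. They read 5′ to 3′ on the gene's strand with the matches in capitals.
MCM6, chr2:135876394-135876693, minus strand: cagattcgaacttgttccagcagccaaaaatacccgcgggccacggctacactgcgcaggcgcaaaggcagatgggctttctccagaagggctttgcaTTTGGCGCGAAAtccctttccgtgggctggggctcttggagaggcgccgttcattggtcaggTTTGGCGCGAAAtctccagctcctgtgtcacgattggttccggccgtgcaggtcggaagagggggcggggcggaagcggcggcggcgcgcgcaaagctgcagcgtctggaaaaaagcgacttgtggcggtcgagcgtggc
POLE2, chr14:49688165-49688464, minus strand: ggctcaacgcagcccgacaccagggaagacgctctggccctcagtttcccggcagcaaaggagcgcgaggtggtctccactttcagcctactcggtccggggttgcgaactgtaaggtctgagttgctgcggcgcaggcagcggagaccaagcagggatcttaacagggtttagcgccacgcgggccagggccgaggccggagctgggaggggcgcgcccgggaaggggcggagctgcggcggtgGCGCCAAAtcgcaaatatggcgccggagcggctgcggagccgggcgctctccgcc
E2F1, chr20:33686336-33686635, minus strand: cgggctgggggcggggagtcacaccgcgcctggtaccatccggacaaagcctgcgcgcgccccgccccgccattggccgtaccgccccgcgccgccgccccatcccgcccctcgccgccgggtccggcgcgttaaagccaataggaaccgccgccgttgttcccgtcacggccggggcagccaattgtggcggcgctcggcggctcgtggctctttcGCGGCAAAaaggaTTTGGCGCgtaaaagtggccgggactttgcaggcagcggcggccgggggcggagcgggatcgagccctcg
MCM10, chr10:13161308-13161607, plus strand: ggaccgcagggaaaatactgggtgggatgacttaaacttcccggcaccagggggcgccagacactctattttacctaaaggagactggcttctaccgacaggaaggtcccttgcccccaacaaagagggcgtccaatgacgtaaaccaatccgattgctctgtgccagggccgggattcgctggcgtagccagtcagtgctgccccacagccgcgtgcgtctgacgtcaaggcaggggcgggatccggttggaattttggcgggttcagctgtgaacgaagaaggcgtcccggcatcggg
RFC2, chr7:74254350-74254649, minus strand: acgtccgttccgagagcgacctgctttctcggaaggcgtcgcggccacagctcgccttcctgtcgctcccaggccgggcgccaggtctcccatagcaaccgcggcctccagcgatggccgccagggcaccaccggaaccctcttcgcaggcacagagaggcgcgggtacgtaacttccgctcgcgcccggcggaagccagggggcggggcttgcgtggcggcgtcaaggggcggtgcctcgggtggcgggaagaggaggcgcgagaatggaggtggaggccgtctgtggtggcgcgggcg
In MCM6, each capital stretch holds 2 overlapping matches, 1 on each strand, so that the window has 4. In POLE2, the single match begins 5 bases before the annotated start. The E2F1 window has 2 matches, beginning 33 and 20 bases before the start. A match is only a run of letters, and no binding was measured.

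Reads counted on annotated genes and the further loci totalled 62738937 to 71427573 per Huh7 P library and 63233655 to 70768720 per Huh7 LR library. Values per library are given in CPM, read counts per library size, with sizes adjusted by edgeR's TMM factors. The marker sums in this paragraph are an exception and were scaled by the read totals alone, without these factors. Hepatocyte and hepatocellular carcinoma markers were abundant in both lines, their 10 genes summing to 43913 to 51586 CPM in Huh7 P and 55524 to 59994 CPM in Huh7 LR, with 5 of the 10 higher in Huh7 LR. The 6 fibroblast markers summed to 2.12 to 2.198 CPM in Huh7 P and 4.97 to 8.27 CPM in Huh7 LR, with DCN and THY1 at 0. The 6 leukocyte markers summed to 60.9 to 68.0 CPM in Huh7 P and 10.2 to 13.9 CPM in Huh7 LR, most of it LYZ, with TYROBP and HLA-DRA at 0. The part of these markers in the results was not tested.

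Most DNA replication and S phase genes were lower in the lenvatinib-resistant line, by modest amounts. In the quasi-likelihood test of edgeR, with p-values adjusted by the Benjamini-Hochberg method over all 17531 features tested, 28 of the 38 genes had an adjusted p under 0.05 and were lower in Huh7 LR, 1 was higher and 9 did not pass. Over all features, 22.4% were lower and 23.3% higher by the same rule. Among the 9461 features at least as abundant as the least abundant of the 38 genes, 31.0% were lower and 22.9% higher, and the lines did not overlap in 36.3% with Huh7 LR below and 26.5% with Huh7 LR above. The log2 fold change (Huh7 LR over Huh7 P) was negative for 36 of the 38 genes and ranged from -1.21 to 0.43. Its median was -0.35, which puts the typical gene in Huh7 LR at 78.2% of Huh7 P, while the median over all features was 0.00. In 31 genes all Huh7 LR libraries lay below all Huh7 P libraries, a pattern present in 27.7% of all features, and in 1 gene, RFC2, all lay above, as in 28.2% of all features. By the stricter rule, which asks for an adjusted p under 0.001 and more than a 2-fold difference, only POLA2 was called, against 1.78% of all features called lower and 4.43% called higher. That call was lost when the reads of a gene overlapping POLA2 were added, with limma-trend on log2(FPKM + 1), and on log2(FPKM + 0.1) without a filter. With no fold threshold, 21 genes were lower and 1 higher at an adjusted p under 0.01, against 15.3% and 16.2% of all features, and 10 were lower and 0 higher at an adjusted p under 0.001, against 8.24% and 9.42%.

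**Figure D1:**
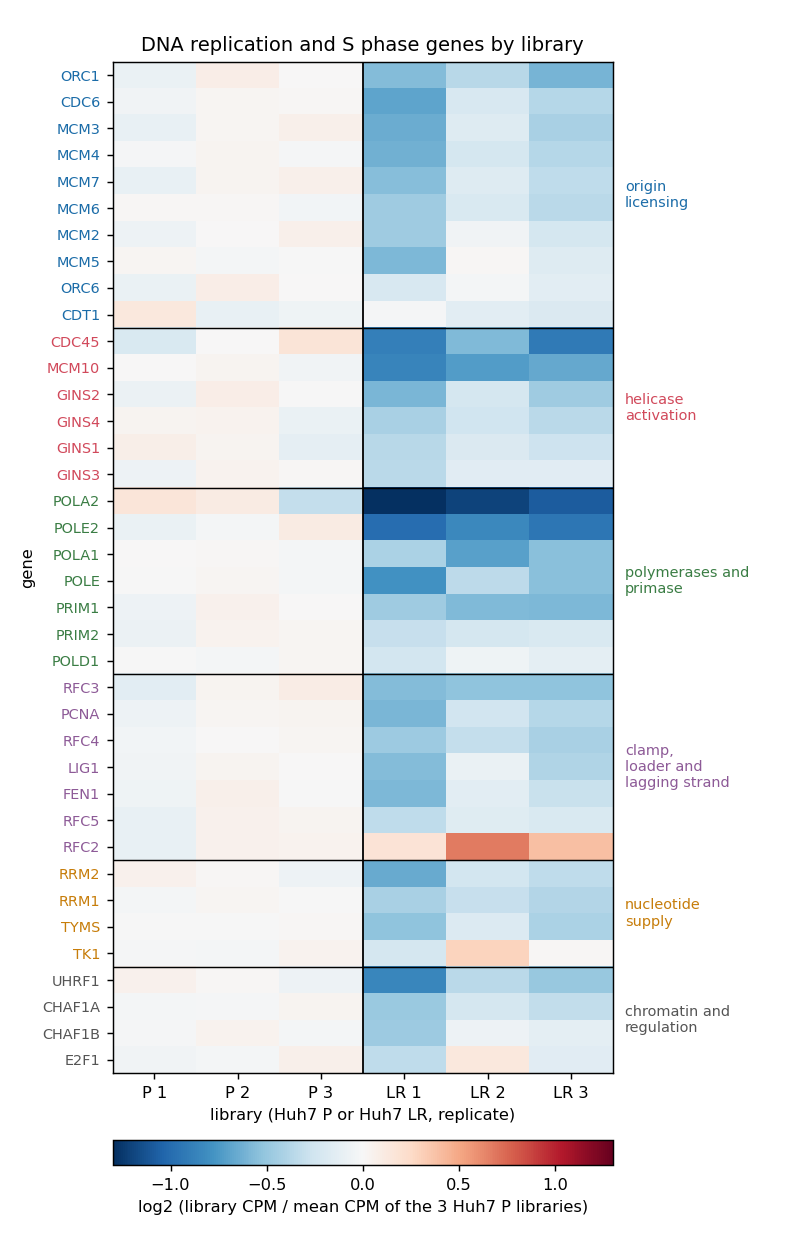
Heat map of the 38 genes (rows, grouped by role) in the 6 libraries (columns), coloured by the log2 ratio of the library's CPM to the mean CPM of the 3 Huh7 P libraries. The Huh7 LR columns are blue for nearly all genes and deepest for POLA2, POLE2, CDC45 and MCM10, replicate 1 is the darkest column, and RFC2 is red in all Huh7 LR libraries.

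The Huh7 LR libraries did not lie equally low. The median over the 38 genes of the log2 ratio to the Huh7 P mean was -0.50 in Huh7 LR replicate 1, -0.22 in replicate 2 and -0.36 in replicate 3, and lay between -0.04 and 0.03 in the Huh7 P libraries. Huh7 LR replicate 1 was the lowest of the 6 libraries for 32 of the 38 genes, against 21.4% of all features and 28.2% of the features at least as abundant. Huh7 LR replicate 2 was the highest of its line for 31 genes (81.6%), against 38% of all features and 47.3% of the features at least as abundant. Without Huh7 LR replicate 1, 25 genes were lower and the median log2 fold change was -0.28. Without Huh7 LR replicate 2, 32 genes were lower and the median was -0.43, the additional genes being MCM2, MCM5, POLD1 and E2F1.

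Origin licensing genes were lower in 6 of 10 cases, with a median log2 fold change of -0.34. The counts of lower genes in each role stand beside 22.4% over all features and 31.0% among the features at least as abundant. ORC1 (chromosome 1, 52372829 to 52404459), the largest subunit of the origin recognition complex, stood at 54.0, 60.9 and 57.6 CPM in Huh7 P and at 38.9, 44.9 and 37.9 CPM in Huh7 LR. The lines did not overlap, and the log2 fold change of -0.50 (standard error 0.08) had an adjusted p of 0.00061 in edgeR's quasi-likelihood test. CDC6, the ATPase that joins ORC to load the helicase, fell by 0.41 on the log2 scale (adjusted p = 0.00849), from 119.9 ± 3.22 to 90.4 ± 14.7 CPM (SD, n = 3 each). CDT1 (chromosome 16, 88803213 to 88809258), the partner that brings the MCM ring to the origin, stood at 59.6, 50.6 and 52.1 CPM in Huh7 P and at 53.4, 49.1 and 47.3 CPM in Huh7 LR. Its lines overlapped, and its log2 fold change of -0.12 (95% interval -0.30 to 0.07) had an adjusted p of 0.28. ORC6, the smallest ORC subunit, did not pass either (log2 fold change -0.12, adjusted p = 0.257).

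Among the helicase subunits MCM2 to MCM7, 4 of 6 were lower. MCM4 (chromosome 8, 47960185 to 47978160) stood at 295, 306 and 296 CPM in Huh7 P and at 194, 256 and 231 CPM in Huh7 LR. MCM6 (chromosome 2, 135839626 to 135876426), whose promoter window is printed above, stood at 181, 180.1 and 175 CPM in Huh7 P and at 129.8, 155 and 141 CPM in Huh7 LR. Neither gene's lines overlapped, and their log2 fold changes were -0.40 (standard error 0.09, adjusted p = 0.00518) and -0.33 (standard error 0.08, adjusted p = 0.00471). MCM3 (log2 fold change -0.40, adjusted p = 0.0112) and MCM7 (-0.34, adjusted p = 0.0129) were also lower. MCM7 did not pass without Huh7 P replicate 2 (adjusted p = 0.0521) or replicate 3 (adjusted p = 0.0521), or by limma-trend on log2(FPKM + 0.1) without a filter on low values (adjusted p = 0.0507). MCM2 (-0.23, adjusted p = 0.0732) and MCM5 (-0.22, adjusted p = 0.163) did not pass, and in CPM Huh7 LR replicate 2 lay within the Huh7 P range for both. Without that library they passed, at -0.33 (adjusted p = 0.00761) and -0.35 (adjusted p = 0.0175). MCM2 also passed with the replicate number as a block (-0.24, adjusted p = 0.0312) and with DESeq2 (-0.23, adjusted p = 0.0381).

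The 6 subunits enter the ring in equal numbers, but their RNAs did not stand at equal levels. In FPKM, the authors' scaling for length and depth, the order in every Huh7 P library was MCM7, MCM3, MCM2, MCM4, MCM6, MCM5. The highest exceeded the lowest by 5.25- to 5.98-fold in Huh7 P and by 4.97- to 5.86-fold in Huh7 LR. MCM7 stood at 207 ± 9.27 FPKM in Huh7 P and 167 ± 20.5 FPKM in Huh7 LR, and MCM5 at 36.3 ± 1.04 and 31.8 ± 6.43 FPKM (SD, n = 3 each). In Huh7 P no neighbours in this order overlapped in their library ranges, and in Huh7 LR 2 of the 5 neighbouring pairs did. MCM2 lay above MCM3 in Huh7 LR replicates 1 and 3 and below it in the other 4 libraries. Over all 38 genes the highest levels after MCM7 in Huh7 P were those of PCNA (181 ± 5.64 FPKM), FEN1 (113 ± 4.29) and MCM3 (109 ± 5.18), and the lowest was CHAF1B (4.57 ± 0.124), each with n = 3. Of the 37 neighbouring pairs in the full order, 21 overlapped in Huh7 P and 29 in Huh7 LR, so most ranks in the middle are not distinct.

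**Figure D2:**
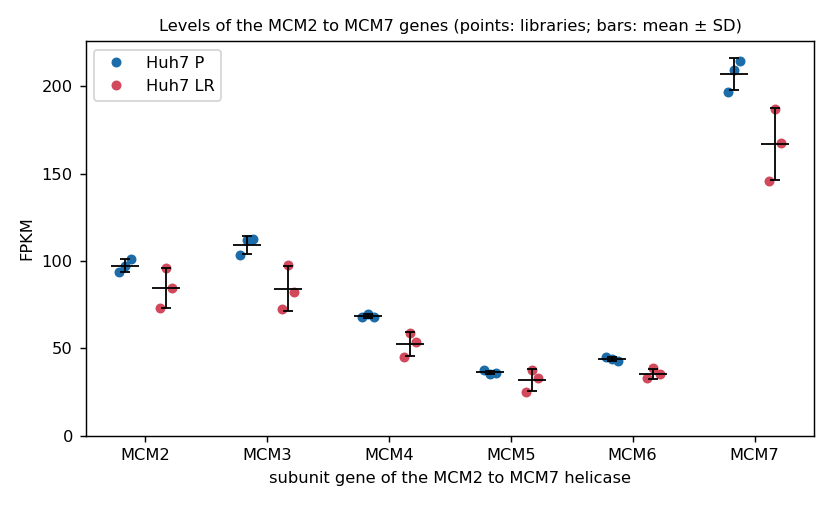
FPKM of the MCM2 to MCM7 genes in each Huh7 P (blue) and Huh7 LR (red) library, with points for libraries and bars for mean ± SD (n = 3). MCM7 stands highest in all 6 libraries and MCM5 lowest, and in Huh7 LR replicate 2 the MCM2 point (96.0 FPKM) lies within the Huh7 P range and the MCM5 point (37.7 FPKM) just above it.

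Genes that turn the loaded ring into the active helicase were lower in 5 of 6 cases, with a median log2 fold change of -0.38. All 6 had every Huh7 LR library below every Huh7 P library. Over all features, 22.4% were lower and 27.7% had every Huh7 LR library below every Huh7 P library. MCM10 (chromosome 10, 13161554 to 13211104), which is needed for origin firing, stood at 60.8, 62.4 and 59.0 CPM in Huh7 P and at 33.6, 36.7 and 38.3 CPM in Huh7 LR. CDC45 (chromosome 22, 19479459 to 19520612), a core subunit of the active helicase, stood at 54.1, 62.2 and 69.2 CPM in Huh7 P and at 33.4, 41.6 and 32.6 CPM in Huh7 LR. Their log2 fold changes were -0.74 (standard error 0.07, adjusted p = 1.78e-05) and -0.78 (standard error 0.11, adjusted p = 0.00022), which put Huh7 LR at 59.7% and 58.0% of Huh7 P.

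The 4 GINS subunits differed less. GINS4 (chromosome 8, 41529206 to 41545046) stood at 50.3, 50.7 and 46.1 CPM in Huh7 P and at 36.6, 40.8 and 38.3 CPM in Huh7 LR, without overlap (-0.35 on the log2 scale, standard error 0.08, adjusted p = 0.00326). GINS2 (-0.42, adjusted p = 0.00527) and GINS1 (-0.27, adjusted p = 0.0147) were also lower. GINS1 did not pass without Huh7 P replicate 1 (adjusted p = 0.0588) or replicate 2 (adjusted p = 0.0637). GINS3 (chromosome 16, 58295080 to 58406144), the least abundant of the 38 genes in CPM, stood at 11.7, 12.6 and 12.4 CPM in Huh7 P and at 9.60, 11 and 11 CPM in Huh7 LR. Its lines did not overlap, but its log2 fold change of -0.21 (95% interval -0.44 to 0.02) had an adjusted p of 0.119.

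Polymerase and primase genes had the lowest median of the 6 roles, a log2 fold change of -0.55, with 6 of 7 lower. The roles were not tested against each other. POLE2 (chromosome 14, 49643555 to 49688422), the second subunit of polymerase epsilon, stood at 48.6, 50.9 and 55.5 CPM in Huh7 P and at 26.1, 29 and 27 CPM in Huh7 LR. The lines lay well apart, and the log2 fold change of -0.92 (standard error 0.08) had an adjusted p of 6.97e-06, the smallest among the 38 genes. POLE, the catalytic subunit of the same enzyme, was lower by a log2 fold change of -0.55 (adjusted p = 0.00107), and POLA1, the catalytic subunit of polymerase alpha, by -0.55 (adjusted p = 0.000332). PRIM1 (chromosome 12, 56731596 to 56752373), the catalytic primase subunit, stood at 44.5, 48.5 and 46.6 CPM in Huh7 P and at 33.8, 31.3 and 31.0 CPM in Huh7 LR (log2 fold change -0.54, standard error 0.07, adjusted p = 0.000158).

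PRIM2, the regulatory primase subunit, was lower by less (-0.24, adjusted p = 0.0298), and it did not pass without Huh7 P replicate 2 (adjusted p = 0.143), Huh7 P replicate 3 (0.0871), Huh7 LR replicate 1 (0.0657) or Huh7 LR replicate 3 (0.0583), or without the filter on low counts (0.0512). POLD1 (chromosome 19, 50384204 to 50418016), the catalytic subunit of polymerase delta, stood at 157, 155 and 160.1 CPM in Huh7 P and at 133.9, 151 and 144 CPM in Huh7 LR. The lines did not overlap, but the log2 fold change of -0.14 (95% interval -0.29 to 0.01) had an adjusted p of 0.128.

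**Figure D3:**
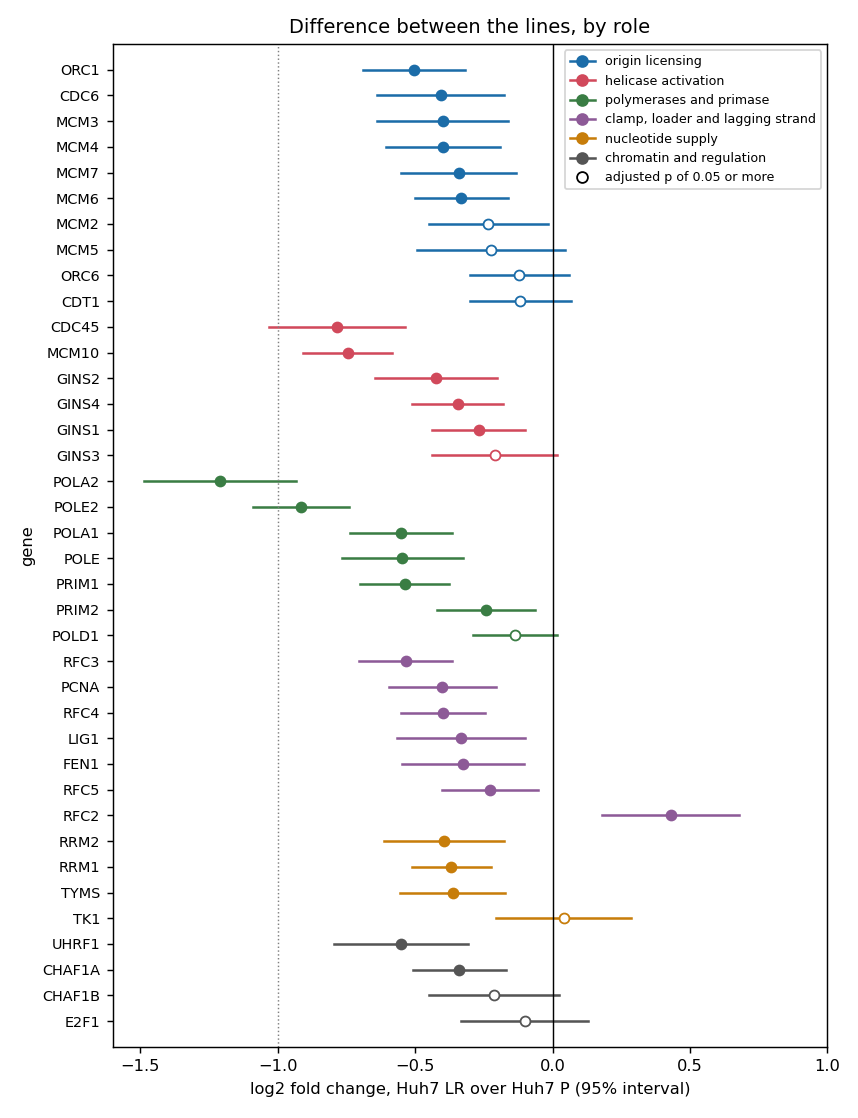
Log2 fold change of each gene, Huh7 LR over Huh7 P (x axis, with 95% intervals from edgeR), grouped and coloured by role, with open circles for an adjusted p of 0.05 or more and a dotted line at a 2-fold decrease. POLA2 is the only point beyond the dotted line, and RFC2 is the only filled point to the right of 0.

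POLA2 (chromosome 11, 65261762 to 65305589), the regulatory subunit of polymerase alpha, had the lowest log2 fold change of the 38 genes, -1.21 (standard error 0.13, adjusted p = 2.43e-05). It stood at 35.2, 34.0 and 25.6 CPM in Huh7 P and at 12.4, 13.7 and 14.9 CPM in Huh7 LR. In GENCODE release 29, 2012 of its 5726 exon bases (35.1%) also belong to AP000944.2, a gene on the same strand at 65261928 to 65326543. The reads assigned to AP000944.2 stood at 12.1, 8.99 and 21.7 CPM in Huh7 P and at 24.6, 29.8 and 21.0 CPM in Huh7 LR (log2 fold change 0.82, adjusted p = 0.0224). So the counts of the pair moved in opposite directions. Their sum was 45.9 ± 2.48 CPM in Huh7 P and 38.8 ± 4.11 CPM in Huh7 LR (SD, n = 3 each), and its lines overlapped, at 43.0 to 47.3 CPM against 35.9 to 43.5 CPM. Summed, the pair differed by -0.24 on the log2 scale (standard error 0.09, adjusted p = 0.0436) and was not called past 2-fold. The share of the sum assigned to POLA2 was 69.2% ± 13.3 in Huh7 P and 35.5% ± 5.28 in Huh7 LR (SD, n = 3 each). How reads over the shared bases were assigned is not given in the sources used here, so the size of the POLA2 difference is uncertain.

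**Figure D4:**
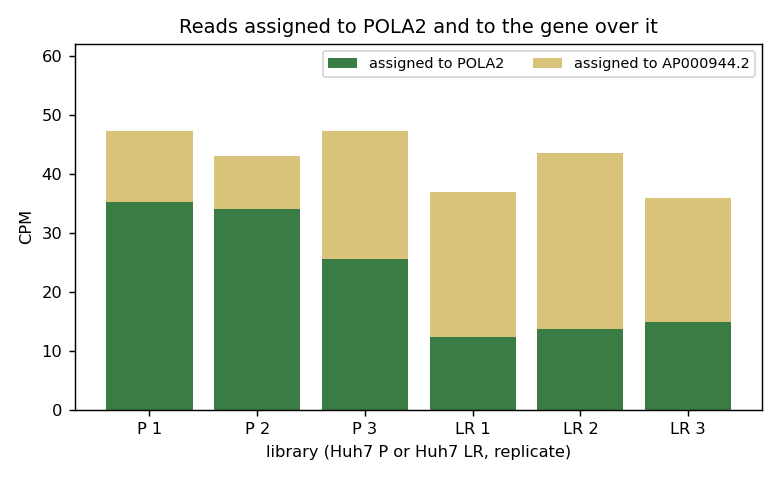
CPM assigned to POLA2 (green) and to AP000944.2 (yellow), stacked, in each of the 6 libraries. The green part falls from 25.6 to 35.2 CPM in Huh7 P to 12.4 to 14.9 CPM in Huh7 LR while the yellow part is larger in Huh7 LR than in Huh7 P replicates 1 and 2, and the stack of Huh7 LR replicate 2 (43.5 CPM) exceeds that of Huh7 P replicate 2 (43.0 CPM).

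For the other genes that share at least 10% of their exon bases on the same strand, the sums stayed near the gene's own value. RRM2 shares 20.2% of its exon bases with AC007240.1 and PRIM1 shares 14.9% with AC117378.1, and the summed log2 fold changes were -0.41 and -0.52. With every same-strand partner summed, whatever the shared length, CHAF1B with MORC3 passed at -0.30 (adjusted p = 0.0129) and FEN1 with FADS2, a far more abundant gene, did not, at -0.04 (adjusted p = 0.674). TYMS shares 39.2% with ENOSF1 on the opposite strand. Whether counting used strand is not given in the sources used here, so reads of TYMS and ENOSF1 may not be told apart.

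Genes of the clamp, its loader and the lagging strand were lower in 6 of 7 cases, with a median log2 fold change of -0.33, and the remaining gene was higher. PCNA (chromosome 20, 5114953 to 5126626), the sliding clamp, stood at 253, 271 and 272 CPM in Huh7 P and at 176, 223 and 205 CPM in Huh7 LR. RFC3 (chromosome 13, 33818049 to 33966558), a small subunit of the clamp loader, stood at 55.9, 63.2 and 65.9 CPM in Huh7 P and at 41.7, 43.1 and 43.1 CPM in Huh7 LR. Neither gene's lines overlapped, and their log2 fold changes were -0.40 (standard error 0.09, adjusted p = 0.00352) and -0.53 (standard error 0.08, adjusted p = 0.000224). RFC4 (chromosome 3, 186789880 to 186807058), another small subunit, stood at 66.3, 68.2 and 68.8 CPM in Huh7 P and at 48.9, 54.7 and 50.7 CPM in Huh7 LR (-0.40, standard error 0.07, adjusted p = 0.000764). RFC5 (chromosome 12, 118013588 to 118033130), also a small subunit, stood at 37.3, 41.4 and 40.9 CPM in Huh7 P and at 31.6, 35.8 and 34.7 CPM in Huh7 LR (-0.23, standard error 0.08, adjusted p = 0.036).

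RFC2 (chromosome 7, 74231499 to 74254458), the remaining small subunit of the loader, was the 1 gene of the 38 that was higher in Huh7 LR. Its library values are given because of its direction, after they had been seen. It stood at 32.2, 35.8 and 35.5 CPM in Huh7 P and at 39.1, 55.1 and 45.3 CPM in Huh7 LR, 135% of Huh7 P, without overlap. The log2 fold change was 0.43 (standard error 0.11, 95% interval 0.18 to 0.68, adjusted p = 0.00937), and over 18 alternatives of scaling, filter, test and libraries it ranged from 0.30 to 0.54, with adjusted p between 0.000747 and 0.0437. In FPKM, RFC2 stood below RFC4 and RFC3 and above RFC5 in Huh7 P, and in Huh7 LR it stood below RFC4 and above RFC3. Its library range did not overlap that of either neighbour in this order in either line.

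FEN1, the flap endonuclease that trims lagging-strand fragments, and LIG1, the ligase that joins them, were lower by log2 fold changes of -0.33 (adjusted p = 0.0212) and -0.33 (adjusted p = 0.0238). Along with RFC5, they were the genes of this role whose call was lost under some alternatives. RFC5, FEN1 and LIG1 did not pass without Huh7 P replicate 2 (adjusted p = 0.145, 0.0829 and 0.08), without Huh7 P replicate 3 (0.0997, 0.0562 and 0.0694) or without Huh7 LR replicate 3 (0.0831, 0.0509 and 0.0865). RFC5 and LIG1 also did not pass without Huh7 LR replicate 1 (0.091 and 0.0561). By limma-trend, RFC5 did not pass on log2(FPKM + 0.1) with a filter on low values (adjusted p = 0.0777) or without one (0.0941) or on log2(FPKM + 1) (0.0773), and FEN1 did not pass on log2(FPKM + 0.1) without a filter (0.07).

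Among the nucleotide supply genes, 3 of 4 were lower. RRM1 (chromosome 11, 4094707 to 4138876), the large subunit of ribonucleotide reductase, stood at 167, 173 and 169 CPM in Huh7 P and at 127, 137 and 129.9 CPM in Huh7 LR. RRM2 (chromosome 2, 10120698 to 10131419), its small subunit and the S phase partner, stood at 196, 189.9 and 179.6 CPM in Huh7 P and at 120.1, 160.0 and 150.0 CPM in Huh7 LR. Neither gene's lines overlapped, and their log2 fold changes were -0.37 (standard error 0.07, adjusted p = 0.000933) and -0.39 (standard error 0.10, adjusted p = 0.00748). TYMS (chromosome 18, 657604 to 673578), thymidylate synthase, stood at 141, 141 and 143 CPM in Huh7 P and at 99.1, 125 and 106 CPM in Huh7 LR (-0.36, standard error 0.09, adjusted p = 0.0056). TK1 (chromosome 17, 78174075 to 78187233), the thymidine kinase of the salvage route, stood at 87.9, 87.6 and 91.9 CPM in Huh7 P and at 75.8, 109 and 89.9 CPM in Huh7 LR. Its Huh7 LR libraries lay on both sides of Huh7 P, and its log2 fold change of 0.04 (95% interval -0.20 to 0.29) had an adjusted p of 0.794.

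Of the 4 chromatin and regulation genes, 2 were lower (50%), against 22.4% of all features and 31.0% of the features at least as abundant. UHRF1 (chromosome 19, 4903080 to 4962154), which carries DNA methylation through replication, stood at 199.6, 194 and 183 CPM in Huh7 P and at 106, 150.3 and 137 CPM in Huh7 LR (log2 fold change -0.55, standard error 0.11, adjusted p = 0.00196). CHAF1A (chromosome 19, 4402662 to 4445018), the large subunit of chromatin assembly factor 1, stood at 153, 154 and 159 CPM in Huh7 P and at 111, 133 and 124 CPM in Huh7 LR (-0.34, standard error 0.08, adjusted p = 0.00416). CHAF1B (chromosome 21, 36385378 to 36419015), the middle subunit, stood at 22.0, 23.0 and 21.9 CPM in Huh7 P and at 16.1, 21.3 and 20.4 CPM in Huh7 LR, without overlap but short of the threshold (-0.21, adjusted p = 0.133). E2F1 (chromosome 20, 33675683 to 33686404), a transcription factor that activates replication genes, stood at 97, 98.9 and 105 CPM in Huh7 P and at 80.1, 110.2 and 90.4 CPM in Huh7 LR. The E2F1 lines overlapped, and its log2 fold change was -0.10 (95% interval -0.33 to 0.13, adjusted p = 0.458).

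Position in the genome and E2F matches were set beside the fold changes as descriptions. The 38 genes lie on 19 chromosomes. Each was set beside up to 20 tested annotated genes on either side, leaving out the 38 genes themselves and genes that share exon bases with the gene, which gave 40 neighbours for all but POLE (32) and TYMS (24). The neighbours of a gene had a median log2 fold change between -0.22 and 0.21, and 36 of the 38 genes lay below the median of their own neighbours. Over all 38 genes, the median of the gene's log2 fold change minus that of its neighbours was -0.38. E2F matches were present in 6 of 8 licensing genes with a window, 3 of 5 helicase activation genes, 4 of 7 polymerase and primase genes, 3 of 7 clamp, loader and lagging-strand genes, 1 of 4 nucleotide supply genes and 2 of 4 chromatin and regulation genes. The 19 genes with a match had a median log2 fold change of -0.40 and 15 of them were lower. The 16 genes with a window and no match had a median of -0.33 and 11 were lower. Those 16 include MCM10, CDC45 and CHAF1A, whose windows hold the uncounted form TTTGGCGGG, so a gene without a match may hold a near form. MCM10 was lower and RFC2 higher with no match in either printed window, and E2F1 did not pass with 2.

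Other genes of the pathway outside the 38 were described by lists written from general knowledge. Their counts stand beside 22.4% lower and 23.3% higher over all features. Of 40 other replisome and origin genes, 27 were lower and 2 higher, with a median log2 fold change of -0.39. The 2 lowest values were those of DSCC1, part of an alternative clamp loader (-1.49, adjusted p = 5.54e-07), and ATAD5, which helps unload the clamp (-1.02, adjusted p = 0.000103), and the 2 that were higher were POLD4, the smallest polymerase delta subunit (0.47, adjusted p = 0.000315), and RPA3, the smallest subunit of the single-strand binding protein RPA (0.37, adjusted p = 0.00426). DSCC1 stood at 26.2 ± 1.22 CPM in Huh7 P and 9.31 ± 0.285 CPM in Huh7 LR (SD, n = 3 each). Of 20 other nucleotide supply genes, 13 were lower and 2 higher, with a median of -0.36. PPAT, the first enzyme of purine synthesis, and MTHFD1, a folate enzyme, had the largest decreases (-1.07 and -1.06), and SAMHD1, which degrades deoxynucleotides, and SHMT1, another folate enzyme, were higher (0.75 and 0.35). Of 10 other chromatin and histone supply genes, 8 were lower and 0 higher by edgeR's quasi-likelihood test, with a median of -0.61. ASF1A, a histone chaperone, and HELLS, a chromatin remodeller, had the largest decreases (-0.74 each), and DNMT1, the maintenance DNA methyltransferase, and NASP, a histone chaperone, the smallest (-0.33 and -0.38).

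Factors upstream of S phase follow. Of 18 E2F, RB and MuvB factors, 7 were lower (38.9%) and 2 higher, with a median log2 fold change of -0.11. Over all features, 22.4% were lower and 23.3% higher. Among features at least as abundant as the least abundant of the 38 genes, 31.0% were lower. LIN9, a core MuvB subunit, and E2F8, a repressor E2F, were lower (-1.02 and -0.99), and TFDP2, a dimer partner of E2F, and E2F7, another repressor E2F, were higher (0.53 and 0.37). Of 19 tested genes among 20 listed G1/S kinases, cyclins and their inhibitors, 5 were lower and 5 higher (26.3% each way), near the 22.4% and 23.3% of all features, with a median of 0.02. CDKN1A, the CDK inhibitor p21, stood at 34.2, 37.4 and 34.1 CPM in Huh7 P and at 78.2, 68.2 and 66.8 CPM in Huh7 LR (1.01, adjusted p = 4.39e-06), and SKP2, the ubiquitin ligase subunit that targets p27, was also higher (0.62, adjusted p = 5.29e-05). CCNA2, the cyclin A of S and G2 phases, and CDC25A, the phosphatase that activates CDK2, were lower (-0.80 and -0.68).

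Mitosis genes, which act after S phase, are given beside the replication genes without a test of the difference. Of 37 mitosis genes, 36 were lower and 0 higher by edgeR's quasi-likelihood test, with a median log2 fold change of -0.67. Over all features, 22.4% were lower and 23.3% higher. Among the 37, 8 were called lower past 2-fold, against 1.78% of all features. CENPF, a kinetochore protein, and ASPM, a spindle pole protein, had the largest decreases (-1.55 and -1.53), PTTG1, the securin, and CENPA, the centromeric histone, the smallest (-0.35 and -0.36), and AURKB, a mitotic kinase, was the gene that did not pass (-0.06, adjusted p = 0.538). Library medians for this list were -0.72, -0.63 and -0.71 in replicates 1, 2 and 3, against the -0.50, -0.22 and -0.36 of the replication genes. Promoter windows of 31 mitosis genes held an E2F match in 2 (6.45%). They held TTTGAA on either strand, the letters of the cell cycle homology region bound by MuvB complexes, in 22 (71%), against 1 of 35 replication genes (2.86%) and 18.2% of all genes with a window.

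**Figure D5:**
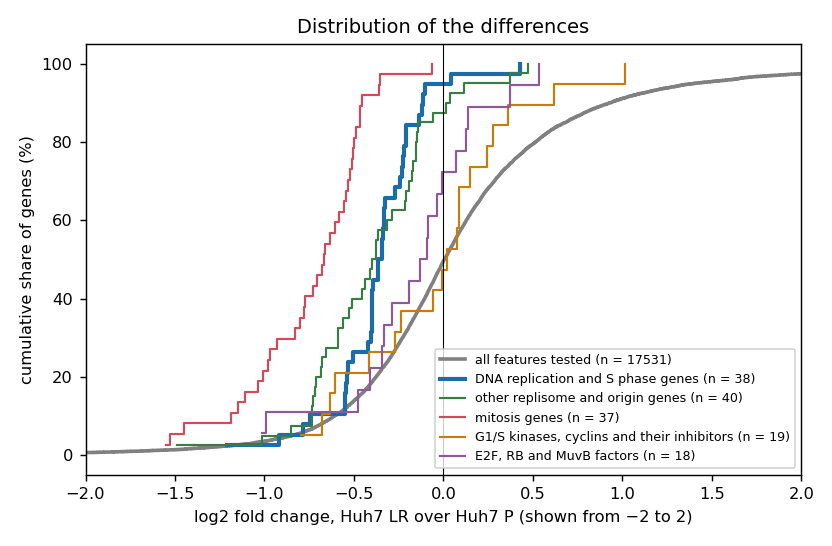
Cumulative share of genes (y axis, %) at or below each log2 fold change (x axis, Huh7 LR over Huh7 P) for the 38 DNA replication and S phase genes, 4 other lists and all 17531 features tested. The curve of the replication genes crosses its median at -0.35, between that of the mitosis genes at -0.67 and that of all features at 0.00, and the G1/S list follows all features with a median of 0.02.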

How the data were processed

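The labels' protocol gives poly(A) RNA and NEBNext Ultra libraries, but it describes extraction from an insect, so it may not describe these samples. The authors deposited, per gene and library, a read count without normalization and an FPKM value scaled for length and depth. The submitters' processing notes name TopHat2, Cufflinks, DESeq and the build mm10, although the identifiers are human, and the tools' roles, and whether counting used strand, are not given in the sources used here. In the table, 34 text lines without a gene were left out, and all 19974 gene identifiers were found in GENCODE release 29 (GRCh38). Counts were fitted in R 4.3.3 with edgeR 4.0.16 (filterByExpr with minimum count 10 and minimum total 15, TMM factors 0.977 to 1.03, quasi-likelihood test, Benjamini-Hochberg adjustment over 17531 features, biological coefficient of variation 12.7%). A gene was lower or higher at an adjusted p under 0.05, and called at an adjusted p under 0.001 and above 2-fold. Intervals are 95%. The scripts were tested on simulated data. The members and lists were chosen with earlier results of these data known. Library values are given for the 3 genes of each role with the smallest adjusted p, the 1 with the largest, and POLA2, and other lists are named by their 2 largest and 2 smallest log2 fold changes among genes that passed. Alternatives were DESeq2 1.42.0, limma-trend 3.58.1 on FPKM, other scalings, filters and thresholds, a replicate block, summed overlapping genes and each library left out. Summing partners that share at least 10% of exon bases was added after seeing the data. In the sources used here, same-numbered libraries share only a number, and whether they were handled together is not stated. Figures were drawn with matplotlib 3.10.9.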

Additional observations from a re-analysis of the deposited data

How the results depend on the processing

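Of 188 counts and medians compared over 20 alternatives, 182 stayed within 1.5 times their value or, for the median, within the spread between libraries. The number of lower genes was 25 to 29 under other scalings, filters and tests at an adjusted p under 0.05, 21 at an adjusted p under 0.01 and 10 at an adjusted p under 0.001 without a fold threshold, where 0 genes were higher, against 15.3% lower, 8.24% lower and 9.42% higher of all features by the same rules. It was 22 (without Huh7 P replicate 2) to 32 (without Huh7 LR replicate 2) with each library left out, and the median log2 fold change was then -0.43 to -0.28. The number called lower past 2-fold was 0 with limma-trend on log2(FPKM + 1), 0 with limma-trend on log2(FPKM + 0.1) without a filter, and 0 with overlapping genes summed by either rule, where POLA2 was -0.24. The cause of the FPKM difference was not tested, and sums were lost by their construction, since they add the reads of AP000944.2. Of 684 values of single genes, 650 kept direction and side of the threshold, 26 lost and 7 gained it, and TK1 turned to -0.10 (adjusted p = 0.326) without Huh7 LR replicate 2 and was 0.16 without Huh7 LR replicate 1. Same-numbered libraries did not deviate together beyond 0.1 (correlations 0.029, 0.0314 and 0.0317), although each library correlated best with its own number. With the replicate block, 29 genes were lower, MCM2 being the addition, and over all features 4033 were lower and 4089 higher, against 3923 and 4093. The least abundant gene stood at 11.4 CPM on average.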
